A study of Mus musculus with 8 samples.

Results

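The genes described here are 38 mouse genes for peroxisomal lipid metabolism and for the assembly of peroxisomes, taken by name from a list that was drawn up with earlier results of these data known. They comprise 13 peroxins (Pex genes) and 25 enzymes, transporters and membrane proteins, and all 38 were found among the 27179 genes of the count table. Their mRNA was compared in neonatal cardiomyocytes (NCMs) of C57Bl/6 J mice between 4 FA libraries (filtered air) and 4 DE libraries (diesel exhaust). Each library was made from the NCMs of 1 male heart collected on postnatal day 0. Mating took place in FA for both groups, and dams then breathed FA or DE from embryonic day 0.5 until late gestation. DE was regulated to 300 µg/m3 of PM2.5 in sessions that covered part of the day on weekdays. The exposure was thus not continuous, and its average over time was lower. After dissociation, hearts trimmed of atrial and vascular tissue gave a cell suspension from which fibroblasts were left to attach to a plate, in medium with Ara-C for both groups, so the NCMs are enriched and not pure. Dams and litters behind the single hearts are not given in the sources used here, so pups of the same group may share a litter and p-values measure the spread between these libraries.

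Peroxisomes are small organelles that shorten fatty acids too long or too branched for mitochondria. Very long chain and branched acyl-CoAs enter through ABCD transporters of the membrane and are cut by acyl-CoA oxidases, bifunctional enzymes and thiolases, and the shortened products are handed on to mitochondria as carnitine esters. Peroxisomes also perform α-oxidation of phytanic acid and the opening steps of plasmalogen synthesis, an ether lipid class abundant in heart membranes. Peroxins insert the membrane proteins, import the folded matrix enzymes and divide the organelle. The heart relies mainly on fatty acids after birth, and many peroxisomal enzymes share substrates and parts of their regulation with the mitochondrial pathway.

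Libraries held 17943024 to 39839737 counted fragments. FA replicates 2 and 4 were the most alike pair within a group, by a chi-square per gene of 5.37 between their counts. Other FA pairs ran from 19.1 to 46.5 and DE pairs from 17.1 to 70.1. Whether such likeness comes from a shared litter was not tested. In the sample descriptions a number follows the group letters, here called the prefix, whose meaning is not given in the sources used here. It is 11 for the whole FA group and for DE replicates 1 and 7, and 12 for DE replicates 3 and 5. All 8 cardiomyocyte markers checked were expressed, with a summed level of 58976 to 64738 CPM (counts scaled to a common library size) in FA and 44837 to 52739 CPM in DE, with 7 of 8 estimates lower (median log2 fold change -0.18) and 1, Myh6, called. The 8 fibroblast markers had higher estimates in DE without exception, with sums of 2008 to 3461 CPM in FA and 3655 to 6177 CPM in DE, and Col1a1 and Dcn were called. DE replicate 1 had the highest fibroblast sum, and the part of such cells in the member results was not tested. Endothelial markers summed to 979.5 to 1280 CPM in FA and 1043 to 1555 CPM in DE, smooth muscle and pericyte markers to 1588 to 2148 and 1150.2 to 1549 CPM, erythroid markers (7 of 8 found) to 759 to 1881 and 1209 to 2022 CPM, and brown adipocyte markers to 380.4 to 540.4 and 362 to 659.8 CPM. Estimates were higher in DE for 7 of 8 endothelial and 5 of 8 smooth muscle and pericyte markers, for 6 of 6 tested erythroid markers, with Slc4a1 called, and for 3 of 5 tested brown adipocyte markers, with Cidea called lower. Hepatocyte markers, of interest because the liver is rich in peroxisomes, summed to at most 12.7 CPM in any library, with Serpina1a at 0 in all 8 and higher estimates in DE for 3 of 4 tested (median 0.62). Leukocyte markers summed to at most 26.7 CPM, with higher estimates for 5 of 6 tested and Itgam called. The part of these cells was likewise not tested.

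Lower mRNA in DE was the only direction in which a member passed the test. Of the 37 members with enough counts, 7 were lower in DE and 0 were higher, at a Benjamini-Hochberg adjusted p of 0.05 or less from edgeR's quasi-likelihood test with the mean of one group at least 25% above that of the other. These were Hsdl2, Ech1, Abcd3, Ephx2, Acox3, Hsd17b4 and Pex19, which makes 18.9% of the members tested where 2.22% of all 14966 tested genes were called lower. Since the list was not drawn up blind, these shares describe it and are no test. Called in either direction were 5.8% of all tested genes, and called higher 3.58%. Estimates were below 0 for 30 members (81.1%) against 49.5% of all genes, and the median log2 fold change of DE over FA was -0.15 beside 0.0037 for all genes. At an unadjusted p under 0.05, 14 members were lower and Pex6 was higher, 40.5% of the members and 25.6% of all genes. In 13 members every DE library lay below every FA library, and in 0 every DE library lay above. These make up 35.1% and 0% of the members, and 7.26% and 7.43% of all genes (14.7% together). Among the libraries of prefix 11 alone, 4 FA and 2 DE, the test called 4 members. It called 260 genes in all there, where 868 were called with all 8 libraries. The log2 fold changes of the 4 members were -1.34 for Hsdl2, -1.004 for Ech1, -0.74 for Abcd3 and -0.57 for Ephx2.

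Summed over all 38 members, the mean level was 2172.6 ± 54.8 CPM for FA and 1618 ± 51.6 CPM for DE (SD over the 4 libraries of a group, as for all means here), a difference that is described and was not tested. Their summed CPM was 2104, 2236, 2164 and 2186 in FA replicates 2, 3, 4 and 6, and 1552, 1609.8, 1676 and 1634 in DE replicates 1, 3, 5 and 7. The 30 tested but uncalled members summed to 1066 ± 29.9 CPM for FA and 982 ± 26.7 CPM for DE. The 7 called members, which are split off by the difference itself, summed to 1106 ± 25.3 CPM and 636 ± 25.6 CPM. In bulk RNA, fewer cells of a type and less RNA per cell cannot be told apart.

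**Figure D1:**
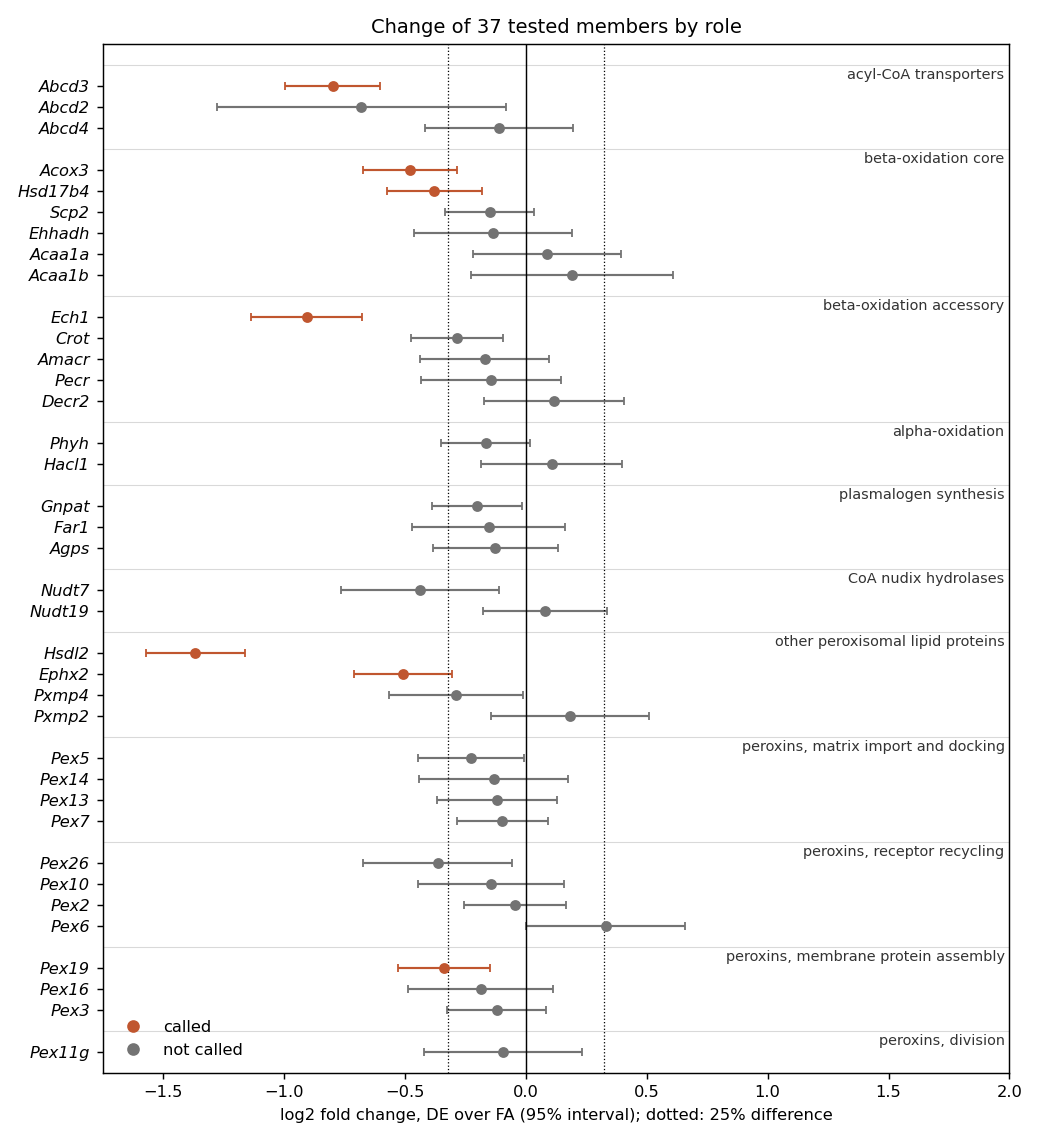
Log2 fold change of DE over FA for the 37 tested members, grouped by role, with 95% intervals derived from the statistic of edgeR's quasi-likelihood test. Orange points are the 7 called members, all left of 0 and beyond the dotted line of a 25% difference, led by Hsdl2 at -1.37, and only 7 estimates lie right of 0.

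Hsdl2, a member of the short-chain dehydrogenase family with a sterol carrier domain, showed the largest difference among the members. It stood at 314, 295, 324 and 306 CPM in FA replicates 2, 3, 4 and 6, and at 116, 109, 127 and 129 CPM in DE replicates 1, 3, 5 and 7. The highest DE library was less than the lowest FA library by a wide margin, and neither group held a library apart. Mean Hsdl2 dropped to 120.3 ± 9.50 CPM in DE, against 309.8 ± 12.2 CPM in FA, with a log2 fold change of -1.37 (SE 0.09, 95% interval -1.57 to -1.16, adjusted p = 2.45e-05 by edgeR's quasi-likelihood test), and ranked 6 among all tested genes by p. It passed in 21 of 21 alternative analyses, with an adjusted p of 0.000563 at most.

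Ech1, a dienoyl-CoA isomerase of unsaturated fatty acids found in peroxisomes and in mitochondria, had the highest level per length of the members. Its CPM was 235, 293, 253 and 277 in the FA replicates and 135, 144, 156 and 129 in the DE replicates. The groups did not overlap, and FA spread more widely than DE. Ech1 fell to 141 ± 11.6 CPM from 265 ± 25.7 CPM, and its log2 fold change was -0.91 (SE 0.10, adjusted p = 0.00103 by edgeR), which passed in 21 of 21 alternatives. Counts per gene do not show to which organelle the protein goes.

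Abcd3, also known as PMP70, the abundant half-transporter that brings branched and long acyl-CoAs into the peroxisome, was lower to a similar degree. It measured 148, 133, 149 and 145 CPM in FA and 83.8, 77.7, 80.5 and 88.8 CPM in DE. Every DE library was far below the lowest FA library, replicate 3. The fall from 144 ± 7.10 to 82.7 ± 4.78 CPM gave a log2 fold change of -0.80 (SE 0.09, adjusted p = 0.000829 by edgeR) and passed in 21 of 21 alternatives.

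Ephx2 encodes soluble epoxide hydrolase, which opens fatty acid epoxides and is found in the cytosol and in peroxisomes. It read 105, 122, 107 and 117 CPM in FA and 73.3, 81.6, 83.5 and 78.6 CPM in DE. DE replicate 1 was the lowest library and the groups did not overlap. Ephx2 fell from 113 ± 8.31 to 79.2 ± 4.45 CPM (log2 fold change -0.51, SE 0.09, adjusted p = 0.0127 by edgeR), and its call was lost under 1 of 21 alternatives, the test with the 25% difference built in (adjusted p = 0.235).

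Acox3 encodes the acyl-CoA oxidase that acts on branched chains. Its levels were 33.2, 33.5, 33.7 and 30.0 CPM in FA and 23.3, 23.5, 22.5 and 24.4 CPM in DE. Replicates were close within each group apart from FA replicate 6, which was the FA library nearest to DE. Acox3 fell from 32.6 ± 1.73 to 23.4 ± 0.746 CPM (log2 fold change -0.48, SE 0.09, adjusted p = 0.0138 by edgeR). The call was lost without FA replicate 2 (adjusted p = 0.0529), without FA replicate 4 (0.0608) and within prefix 11 (0.0759), at nearly the same fold change, and also with the 25% difference built into the test.

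Hsd17b4, the bifunctional protein of branched and very long chain β-oxidation, and Pex19, the chaperone that receives newly made peroxisomal membrane proteins, were the called members closest to the threshold. Hsd17b4 measured 116, 116, 112 and 110.3 CPM in FA and 77.7, 91.7, 91.5 and 88.5 CPM in DE. DE replicate 1 was lower than the other DE libraries, and all were below FA. The log2 fold change of Hsd17b4 was -0.38 (SE 0.09, adjusted p = 0.0350 by edgeR) and was called in 1 of 8 analyses that left out a library, the one without FA replicate 6, and the adjusted p ranged from 0.0455 to 0.108 over the 8. The estimate itself ran from -0.40 to -0.33 over those 8 and was -0.46 within prefix 11. Pex19 measured 123, 139, 124 and 131 CPM in FA and 97.9, 99.7, 106 and 105 CPM in DE. No library of one group reached the other group's range. The log2 fold change of Pex19 was -0.34 (SE 0.09, adjusted p = 0.0454 by edgeR), and leaving out any of the 8 libraries ended the call (adjusted p 0.0596 to 0.131), as did the prefix as a term (adjusted p = 0.106) and prefix 11 alone (adjusted p = 0.159). Its estimate moved little, from -0.36 to -0.30 without a library and -0.35 within prefix 11.

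**Figure D2:**
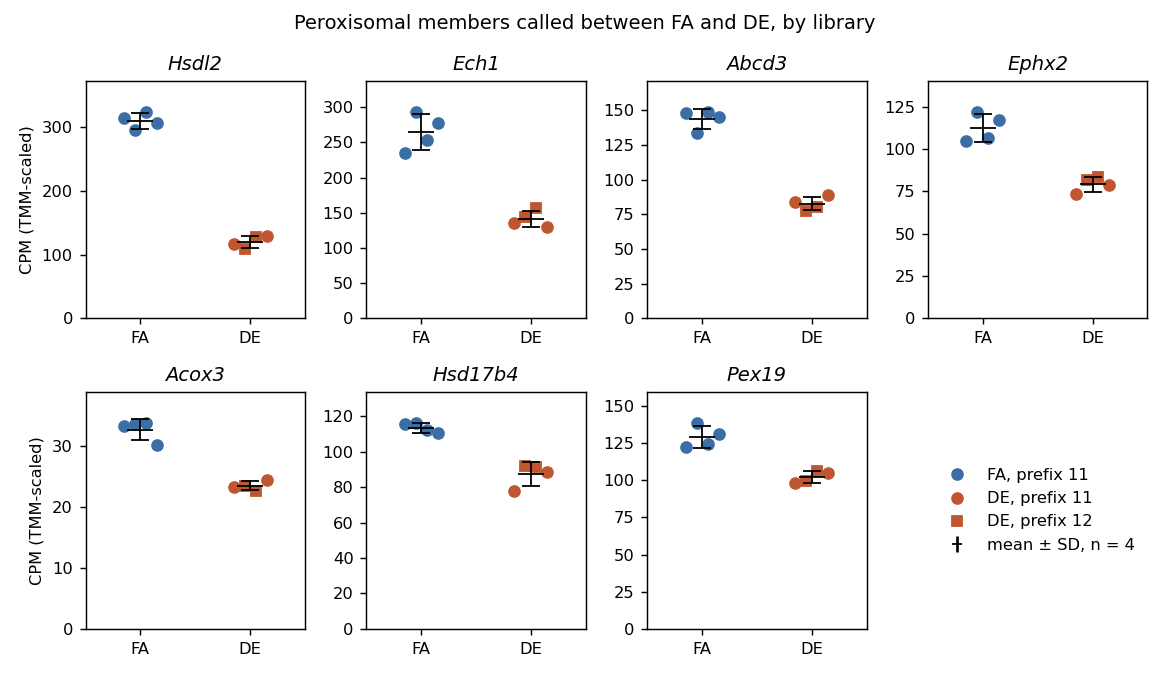
Normalised level (CPM) of the 7 called members in each library, with the mean and SD of 4 FA and 4 DE libraries and separate marks for DE libraries of prefix 11 and 12. In each panel the DE points lie below all FA points, from 109 to 129 CPM against 295 to 324 CPM for Hsdl2.

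Among the transporters, Abcd2 and Abcd4 differed from Abcd3 in level and in error. Abcd2, a transporter of very long chain acyl-CoAs, was at 2.70, 2.04, 3.05 and 2.41 CPM in FA and 2.42, 0.947, 1.30 and 1.76 CPM in DE. DE replicate 1 lay inside the FA range and the other DE libraries below it. The estimate for Abcd2 was -0.68 (SE 0.27, adjusted p = 0.149 by edgeR), and without DE replicate 1 it passed at -0.98 (adjusted p = 0.0372). It was smaller with the prefix as a term (-0.26, adjusted p = 0.626) and within prefix 11 (-0.27, adjusted p = 0.636). Abcd4, which serves cobalamin export from lysosomes and is grouped here by family, gave -0.11 (SE 0.14, adjusted p = 0.650).

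The core β-oxidation enzymes other than Acox3 and Hsd17b4 did not pass. Ehhadh, the bifunctional enzyme of straight chains, was at 10.2, 9.27, 10.05 and 9.88 CPM in FA and 10.8, 8.35, 6.81 and 10.1 CPM in DE. The DE libraries enclosed the whole FA range, with both prefix 12 libraries at the bottom, and the estimate of -0.14 (SE 0.15, adjusted p = 0.596) became 0.08 within prefix 11. Scp2, which yields a thiolase and a sterol carrier protein, gave -0.15 (SE 0.08, adjusted p = 0.288). The straight-chain thiolases Acaa1a and Acaa1b gave 0.09 (SE 0.14, adjusted p = 0.727) and 0.19 (SE 0.19, adjusted p = 0.553). These are close copies of each other, so the split of reads between them is uncertain.

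Of the accessory β-oxidation enzymes, Crot came nearest to the threshold after Ech1. Crot, the carnitine octanoyltransferase that readies shortened chains for export, was at 42.4, 44.3, 40.1 and 43.8 CPM in FA and 37.0, 34.4, 33.2 and 35.5 CPM in DE. The groups were apart, yet the log2 fold change of -0.29 (SE 0.09) had an adjusted p of 0.0765 by edgeR. Decr2, a dienoyl-CoA reductase, gave 0.12 (SE 0.13, adjusted p = 0.607). Pecr, an enoyl-CoA reductase, gave -0.14 (SE 0.13, adjusted p = 0.518), and Amacr, the racemase of branched acyl-CoAs, gave -0.17 (SE 0.12, adjusted p = 0.401). None of the 3 had groups that were apart.

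For α-oxidation, Phyh, the phytanoyl-CoA hydroxylase, was at 142, 143, 148 and 145 CPM in FA and 124, 124, 130.2 and 137 CPM in DE. All DE libraries were lower, but the log2 fold change was only -0.17 (SE 0.08, adjusted p = 0.239 by edgeR). Hacl1, the lyase of the following step, gave 0.11 (SE 0.13, adjusted p = 0.645), and 58.2% of its exon bases are shared with the gene model Gm49387 on the same strand, so its count is uncertain. In plasmalogen synthesis, Gnpat, the acyltransferase that begins it, was at 145, 161, 151 and 146 CPM in FA and 125, 131, 137 and 132 CPM in DE. The groups of Gnpat were apart and its estimate of -0.20 (SE 0.09) had an unadjusted p of 0.0375 and an adjusted p of 0.168 by edgeR. Agps, which makes the ether bond, gave -0.13 (SE 0.12, adjusted p = 0.531), and Far1, which supplies the fatty alcohol, gave -0.15 (SE 0.14, adjusted p = 0.531).

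Of the nudix hydrolases that degrade CoA and its esters, Nudt7 was at 15.9, 19.7, 16.03 and 19.4 CPM in FA and 9.80, 14.9, 14.8 and 12.8 CPM in DE. DE replicate 1 was lowest, and the groups were apart. Nudt7 gave -0.44 (SE 0.15, adjusted p = 0.102 by edgeR), and passed with the prefix as a term (-0.66, adjusted p = 0.0410) but not at the same size within prefix 11 (-0.66, adjusted p = 0.0696). Without DE replicate 1 its estimate was -0.32 (adjusted p = 0.141). Nudt19 gave 0.08 (SE 0.12, adjusted p = 0.701), with 40.8% of its exon bases overlapped by B230322F03Rik on the opposite strand and the strand setting of the counting not known. The membrane proteins Pxmp2, a channel, and Pxmp4 gave 0.18 (SE 0.15, adjusted p = 0.466) and -0.29 (SE 0.13, adjusted p = 0.177).

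Of 12 tested peroxins, Pex19 alone was called, lower in DE (8.33%). Of all tested genes, 2.22% were called lower and 5.8% in either direction. Estimates lay below 0 for 11 peroxins, beside 49.5% of all genes, and above 0 for Pex6. Pex2 turned to 0.028 when libraries were scaled by their totals alone and Pex7 to 0.12 with offsets for length and GC content. The median was -0.13 for peroxins and -0.17 for the 25 enzymes and membrane proteins. Summed over 13 peroxins the level was 376 ± 19.8 CPM in FA and 332 ± 14.6 CPM in DE, and over the 25 others 1796 ± 39.3 CPM and 1286 ± 39.2 CPM. The difference between both sets was not tested.

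The import receptors and the docking complex come first in the path of a matrix enzyme. Pex5, the receptor for most matrix enzymes, was at 43.3, 46.5, 43.8 and 43.7 CPM in FA and 33.4, 41.2, 41.6 and 35.3 CPM in DE. Both prefix 11 DE libraries were lowest, and the estimate of -0.23 (SE 0.10, adjusted p = 0.183 by edgeR) was -0.37 within prefix 11. Pex7, the receptor for the second targeting signal, was at 25.5, 25.7, 25.8 and 24.6 CPM in FA and 23.1, 23.4, 24.0 and 24.6 CPM in DE. Its groups nearly touched, and the difference was small (-0.10, SE 0.09, adjusted p = 0.502). The docking proteins Pex13 and Pex14 gave -0.12 (SE 0.11, adjusted p = 0.537) and -0.13 (SE 0.14, adjusted p = 0.579), and 31.4% of the exon bases of Pex14 lie opposite the gene model Gm17029.

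Receptor recycling depends on the ubiquitin ligases Pex2 and Pex10, the ATPase subunit Pex6 and its membrane anchor Pex26. Pex6 had the highest estimate of any member, with 15.96, 22.0, 16.3 and 16.1 CPM in FA and 18.1, 25.6, 24.7 and 19.6 CPM in DE. FA replicate 3 lay inside the DE range, and both prefix 12 DE libraries were the highest. Pex6 gave 0.33 (SE 0.15, adjusted p = 0.193 by edgeR), and 0.10 within prefix 11. Pex26 was at 9.76, 8.17, 9.99 and 7.18 CPM in FA and 7.02, 7.09, 7.23 and 5.86 CPM in DE. A single DE library, replicate 5, exceeded the lowest FA library. Pex26 gave -0.36 (SE 0.14, adjusted p = 0.139), while Pex2 and Pex10 gave -0.04 (SE 0.10, adjusted p = 0.806) and -0.15 (SE 0.14, adjusted p = 0.533).

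In membrane assembly, the partners of Pex19 were tested as well. Pex3, its docking receptor on the peroxisome, gave -0.12 (SE 0.09, adjusted p = 0.441 by edgeR), and Pex16, which helps to recruit Pex3, gave -0.19 (SE 0.14, adjusted p = 0.410). Of the division factors, Pex11g gave -0.09 (SE 0.15, adjusted p = 0.724), with 48.6% of its exon bases opposite the gene model Gm44775. Pex11a was too low to test, with 18 counts over the 8 libraries and at most 0.187 CPM.

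For the 30 uncalled members the error mostly left a difference of the size used for calls possible. The 95% interval stayed within that size in both directions for 2 of them, Pex7 and Pex2. It reached that size on the lower side alone in 21 and on the higher side alone in 7. Standard errors over the tested members ran from 0.084 to 0.27 on the log2 scale, and total counts over the 8 libraries from 443 for Abcd2 to 44783 for Hsdl2. All 7 called members were among the 18 whose level lay above the members' median of 26.6 CPM (38.9%, beside 3.08% of all 6140 tested genes above that level), and 0 were among the 19 at or below it (1.62% of 8826 genes).

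**Figure D3:**
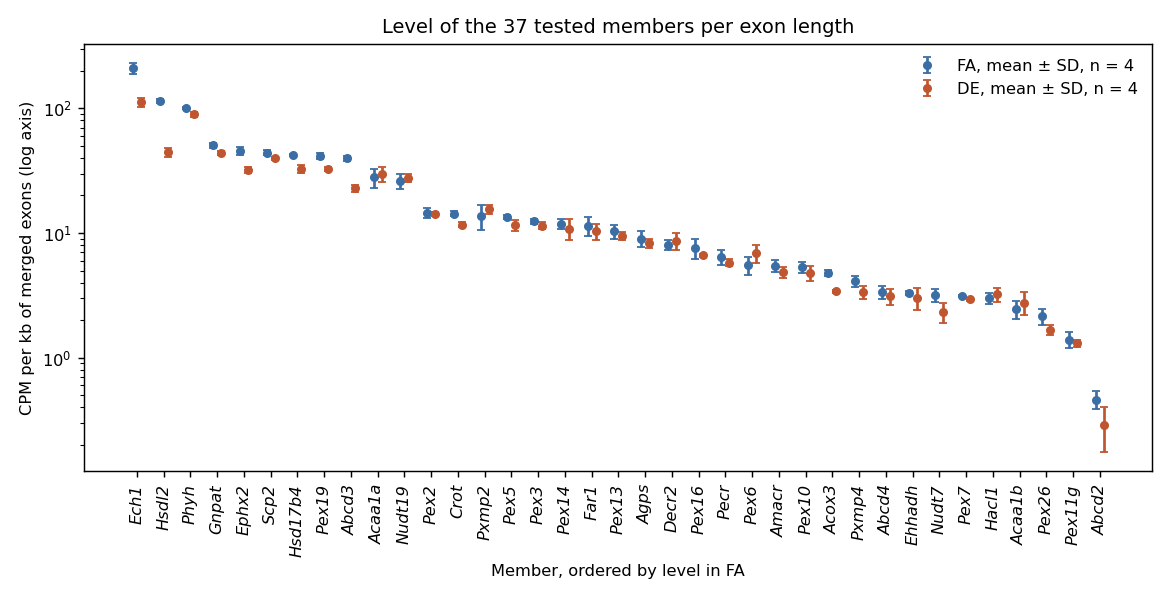
Level per length of the 37 tested members (mean ± SD CPM per kb of merged exon, log axis, 4 libraries per group) in order of the FA level. Ech1 leads in both groups at 209 in FA and 111 in DE, and Hsdl2 moves from 114 to 44.4.

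Compared per length, as CPM per kb of merged exon, the members covered a wide range. In FA the order began with Ech1 (208.9 ± 20.3), Hsdl2 (114 ± 4.51), Phyh (100.4 ± 1.85), Gnpat (50.5 ± 2.49), Ephx2 (45.3 ± 3.35) and Scp2 (44.2 ± 2.07). Gnpat and Ephx2, and Ephx2 and Scp2, were neighbours whose SDs overlapped. In DE the order was Ech1 (111 ± 9.15), Phyh (89.6 ± 4.54), Hsdl2 (44.4 ± 3.51), Gnpat (43.9 ± 1.73) and Scp2 (39.9 ± 1.13), so that Hsdl2 and Gnpat stood level within their SDs. Abcd2 was lowest of the tested members in both groups, at 0.461 and 0.290 CPM per kb. No comparison of levels between genes was tested.

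Peroxisomal enzymes were then set beside a related mitochondrial enzyme within each library, which needs no scaling between libraries. Crot and Cpt2 were paired as carnitine acyltransferases and not as the same step. The 4 mitochondrial partners were called lower in DE. Hadha, of the mitochondrial trifunctional protein, had a log2 fold change of -0.85 (SE 0.08, adjusted p = 0.000414 by edgeR), the thiolase Acaa2 -0.64 (SE 0.11, adjusted p = 0.00891), the reductase Decr1 -0.90 (SE 0.09, adjusted p = 0.000290) and the carnitine palmitoyltransferase Cpt2 -0.88 (SE 0.11, adjusted p = 0.00237).

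Counts of Decr2 were 10.2% ± 0.849 of those of Decr1 in FA and 20.6% ± 2.76 in DE. By library this ratio was 10.2%, 11.4%, 9.38% and 9.89% in FA and 17.6%, 23.6%, 22.2% and 19.2% in DE. The groups were far apart, with the prefix 12 libraries highest. Acaa1a went from 8.36% ± 0.830 to 13.9% ± 1.07 of Acaa2, Hsd17b4 from 10.5% ± 0.393 to 14.6% ± 1.13 of Hadha, and Crot from 44.3% ± 2.47 to 68.1% ± 12.1 of Cpt2. Ehhadh, at 0.982%, 0.833%, 0.926% and 0.911% of Hadha in FA, was at 1.81%, 1.42%, 1.07% and 1.73% in DE. In all 5 pairs every DE library lay above every FA library. The partners were chosen with their fall in DE already known and Hadha serves in 2 of the pairs, so the direction is a description and no test is given. Hsdl2, Ech1 and Abcd3, which fell about as far as the partners or further, were not paired. A ratio of this kind shows unequal change of the paired genes and not a rise of the peroxisomal enzyme, since the mitochondrial partner fell.

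**Figure D4:**
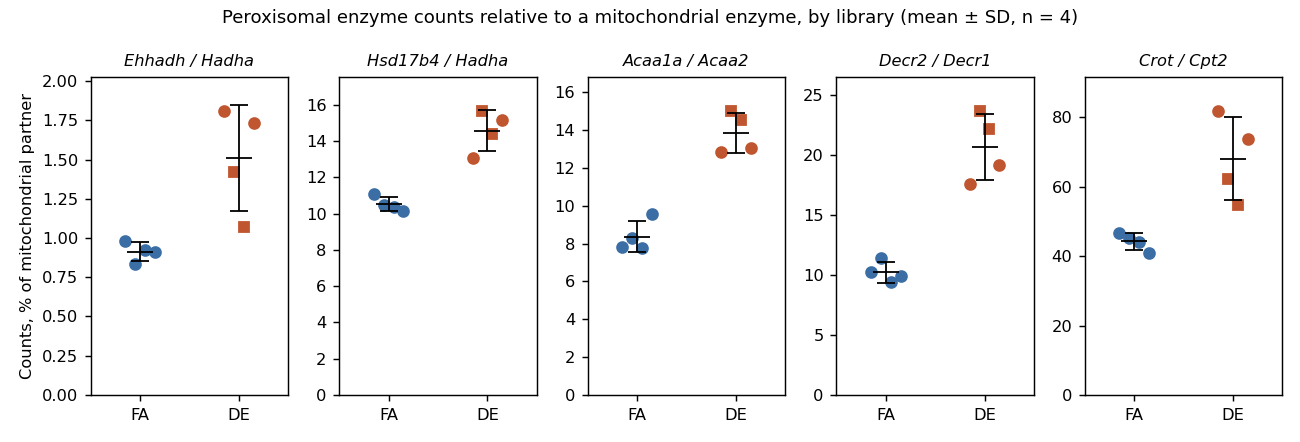
Counts of a peroxisomal enzyme as a percent of its mitochondrial counterpart in each library, for 5 pairs (mean ± SD of 4 FA and 4 DE libraries; squares are DE libraries of prefix 12; each axis starts at 0). DE points lie above all FA points in each panel, for Decr2 to Decr1 at 17.6% to 23.6% against 9.38% to 11.4%.

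Other peroxisomal genes were taken from a list of 57, of which 47 had enough counts. Of these 9 were lower in DE (19.1%), 1 was higher (2.13%), and the median log2 fold change was -0.10, beside 2.22% and 3.58% of all tested genes. Cat, the catalase that removes the hydrogen peroxide made by oxidases, was at 137, 142, 131 and 152 CPM in FA and 74.0, 76.4, 81.4 and 80.8 CPM in DE. All DE libraries were far below FA (log2 fold change -0.85, SE 0.09, adjusted p = 0.000594 by edgeR).

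Further called genes of that list act on acyl-CoAs or on carnitine, with exceptions. Mlycd, the malonyl-CoA decarboxylase, had a log2 fold change of -1.24 (adjusted p = 0.000175 by edgeR), the enoyl-CoA isomerase Eci2 -0.73 (adjusted p = 0.00300) and the carnitine acetyltransferase Crat -0.49 (adjusted p = 0.0249). These 3 proteins are found in mitochondria as well. The thioesterases Acot3 and Acot4 had values of -2.42 (adjusted p = 0.00326) and -1.58 (adjusted p = 0.0370), at no more than 1.58 CPM in any library and within a family of similar genes, so their counts are uncertain. Nudt12, a nudix hydrolase, gave -0.81 (adjusted p = 0.0308), and the protease Ide -0.46 (adjusted p = 0.0261). Mvk, mevalonate kinase of sterol synthesis, was the gene that rose, from 5.86 ± 1.21 to 9.28 ± 0.529 CPM (0.67, adjusted p = 0.0295). With each of the 8 libraries left out in turn, Cat, Mlycd, Eci2 and Acot3 were called in 8 of 8 fits, Ide in 4, Crat, Acot4 and Mvk in 3 each and Nudt12 in 2.

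Sequence upstream of the start was examined because the called members moved the same way. RefSeq promoter windows on GRCm38.p6, the mm10 build, from 250 bases before to 50 after the start, were at hand for 30 of the 38 members. The 100 bases before the annotated start of the 4 called members with a window are printed 5′ to 3′ on the gene's strand, with each CG in capitals.
Hsdl2, chr4:59581417-59581516, plus strand: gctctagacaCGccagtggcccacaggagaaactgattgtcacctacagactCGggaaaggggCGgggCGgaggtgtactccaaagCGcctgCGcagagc
Ech1, chr7:28825238-28825337, plus strand: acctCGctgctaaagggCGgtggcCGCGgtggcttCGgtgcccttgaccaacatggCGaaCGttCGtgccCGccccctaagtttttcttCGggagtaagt
Acox3, chr5:35582881-35582980, plus strand: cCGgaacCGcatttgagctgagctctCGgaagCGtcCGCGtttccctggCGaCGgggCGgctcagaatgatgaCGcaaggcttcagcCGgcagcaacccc
Abcd3, chr3:121815303-121815402, minus strand: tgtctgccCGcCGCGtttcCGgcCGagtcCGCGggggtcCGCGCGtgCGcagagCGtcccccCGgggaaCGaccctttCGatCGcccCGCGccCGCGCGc

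These stretches hold 6, 10, 11 and 21 CG dinucleotides in the order printed. Over the whole windows of 300 bases the counts were 23, 19, 22 and 45, against a median of 16.5 for the 30 members and 19 for windows of all tested genes. The letters AGGTCA, the core of nuclear receptor binding sites, were found on either strand in the windows of Phyh, Scp2 and Pex11g, 3 of 35 member windows, where 12.4% of the windows of tested genes and 16.3% of all 32851 windows hold them. None of those 3 genes was called. The direct repeat DR1, which is 2 copies of AGGTCA set 1 base apart, with at most 2 mismatches and the extended motif TCAAGGTCA, whose unmismatched forms both contain AGGTCA, were in 0 of 35 member windows, with 2.87% and 0.255% of tested-gene windows and 3.86% and 0.423% of all windows holding them. A count of letters in such a window says nothing of which factor binds there.

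Hsdl2 lies on chromosome 4 (59581517 to 59618694 on mm10), Ech1 on chromosome 7 (28825338 to 28832239), Abcd3 on chromosome 3 (121758904 to 121815302), Ephx2 on chromosome 14 (66084372 to 66124522), Acox3 on chromosome 5 (35582981 to 35614208), Hsd17b4 on chromosome 18 (50128201 to 50196270) and Pex19 on chromosome 1 (172126755 to 172136497). The 7 called members thus come from 7 chromosomes.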

How the data were processed

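RNA-seq libraries were made with a stranded poly-A kit from NCMs of 8 male hearts. The authors aligned reads to mm10 with Tophat, marked duplicates without removing them, and deposited raw fragment counts per Entrez gene from featureCounts. How strand and multi-mapping fragments were handled, and which annotation was counted, are not given in the sources used here. Fragments amplified by PCR are not independent molecules, so an error judged from counts alone would be understated. The SEs printed here also rest on the spread between libraries. The methods give n = 3 per group without naming the hearts, and all 8 libraries (17943024 to 39839737 counts) were used.

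Of 27179 genes, 25275 had a symbol and 5435 had 0 counts in all libraries. Counts were tested with edgeR 4.0.16 in R 4.3.3 (filterByExpr with a minimum count of 10, 14966 genes kept, TMM factors, glmQLFit and glmQLFTest with exposure as the only term), with Benjamini-Hochberg adjustment over all tested genes. Calls needed an adjusted p of at most 0.05 together with one group's mean at least 25% above the other's, after the study's methods. CPM use the same factors. Ratios within a library were taken from the raw counts and are described without the permutation test planned for them, since the partners were chosen with their fall known. Alternatives used DESeq2 1.42.0, limma 3.58.1, other scalings and filters, the prefix, and each library left out, and the offsets for GC content and length (5-df splines, known for 92.5% of tested genes) were added after seeing the data. The code was tested on simulated data. Members and lists were chosen with earlier results of these data known and written from general knowledge. Named were all members, the called genes of the other list, the mitochondrial partners, and marker genes whose list moved with exposure. Targeting signals in the proteins were not examined here. Of the called genes of the other list, 1 is not reported here.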

Additional observations from a re-analysis of the deposited data

Results flagged for a closer look

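Within a group of 4 libraries, a member was noted where its highest or lowest library stood apart from the other 3 by more than Dixon's critical value of 0.829. This held for 5 of 74 groups, where chance gives about 3.7. In FA replicate 3, Pex6 was at 21.97 CPM (others 15.96 to 16.25) and Pex5 at 46.54 CPM (others 43.31 to 43.79). In FA replicate 6, Acox3 was at 30.05 CPM (others 33.21 to 33.75), still above every DE library. In DE replicate 5, Pecr was at 8.629 CPM (others 7.565 to 7.745), and in DE replicate 7, Pex26 was at 5.863 CPM (others 7.02 to 7.233).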

How the results depend on the processing

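Hsdl2, Ech1 and Abcd3 were called under every alternative run, and 0 members were called higher under any. The count of 7 members called lower (and of 7 called in either direction) became 3 with the 25% difference built into the test, 4 within prefix 11 (Abcd3, Ech1, Ephx2 and Hsdl2) and 4 to 6 when a library was left out, 4 without FA replicate 2 or FA replicate 4, which leave those same genes. DESeq2, the likelihood ratio test, voom, relative log expression factors and a mean of at least 1 CPM called the same 7. Upper quartile factors called 6, without Pex19, and library totals alone and no filter on low counts called 5, without Hsd17b4 and Pex19. The prefix as a term called 7, with Nudt7 in place of Pex19. Length and GC offsets called 9, adding Pex16 and Pex26. All tested genes gave 868 calls, and 1633 by DESeq2, 1603 by the likelihood ratio test, 114 with the 25% built in, 448 with the prefix as a term, 260 within prefix 11, 1539 with offsets (847 over the same genes without them) and 237 to 1168 without a library. The 10 calls among other peroxisomal genes became 4 with the 25% built in, 6 with the prefix as a term, 5 within prefix 11 and 4 to 12 without a library. The enzyme median of -0.17 was -0.10 under library totals, -0.23 with the prefix as a term, -0.24 within prefix 11, -0.24 with offsets and -0.21 to -0.17 without a library, and the peroxin median of -0.13 was -0.055 under library totals, -0.19 with the prefix as a term and within prefix 11, and -0.18 to -0.10 without a library. The cause of these shifts was not tested.

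Uncalled members near 0 changed sign. With the prefix as a term, Ehhadh was at 0.085, Acaa1a -0.086, Acaa1b -0.017, Decr2 -0.084, Hacl1 -0.040 and Far1 0.0039. Within prefix 11 the values were Ehhadh 0.080, Acaa1a -0.091, Acaa1b -0.022, Decr2 -0.088, Hacl1 -0.045, Far1 4.6e-05 and Nudt19 -0.0021. With offsets they were Acaa1b -0.027, Agps 0.096, Nudt19 -0.023, Pxmp2 -0.0093 and Pex7 0.12. Pex2 was at 0.028 under library totals. Without a library, Pex2 ranged from -0.091 to 0.015, Nudt19 from -0.0045 to 0.16 and Pex11g from -0.15 to 0.0044. Other uncalled estimates near 0 also moved by over 1.5 times without a library while keeping their sign, such as Pex13 (-0.20 to -0.052), Pex14 (-0.22 to -0.023) and Pxmp2 (0.11 to 0.34, the highest without FA replicate 3). Within prefix 11 some lay further from 0 than over all libraries, such as Pex14 (-0.331), Pex10 (-0.338), Abcd4 (-0.269) and Amacr (-0.295). Others lay nearer to 0, such as Agps (-0.035) and Pex3 (-0.050). None of these was called there.

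The ratio differences (log2) within prefix 11 were Ehhadh 0.96, Hsd17b4 0.42, Acaa1a 0.64, Decr2 0.85 and Crot 0.81, and without a library Ehhadh 0.60 to 0.85, Hsd17b4 0.43 to 0.52, Acaa1a 0.69 to 0.80, Decr2 0.94 to 1.08 and Crot 0.51 to 0.71. No paired analysis was possible because the labels give no pairing of FA with DE libraries. Since all FA libraries carry prefix 11, prefix 12 against FA cannot be told apart from exposure. Depth limits the low members most, with 443 counts in all for Abcd2.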
